A study of Rattus norvegicus with 24 samples.

Results

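The genes described here are a set of 8 named for cholesterol synthesis and uptake: Acat2, Hmgcs1, Mvd, Idi1, Fdft1, Sqle, Dhcr7 and Insig1. They were found by gene symbol in the array's annotation, where 7 of the 8 are read by 9 of the 31042 probe sets tested, and Hmgcs1 is not analysed here. Of these 7 genes, 6 are enzymes of synthesis and Insig1 is a sensor of sterols. None of them is a receptor for lipoproteins, so uptake is described through other genes. Testes came from male Fisher 344 rats, and their RNA was hybridised to 24 Affymetrix Rat230_2 arrays, in 6 groups of 4. The rats had been exposed to dibutyl phthalate (DBP), a plasticizer whose metabolite lowers androgen production in the fetal rat testis. Dams received 50 mg/kg DBP or corn oil by gavage daily on gestational days 12 to 20, and fetal testes were taken on gestational day 20 (GD20) from 4 DBP and 4 oil litters. The DBP litters were sampled 6 hours past their final dose, and no such interval was found for the oil litters. Other offspring received 500 mg/kg DBP or corn oil on postnatal day 35 (PND35) and were killed 6 hours later. The 4 groups at PND35 are named by fetal and then postnatal treatment: DBP-DBP, DBP-oil, oil-DBP and oil-oil. The dose in PND35 pups is thus a single acute one at the age when the first spermatids mature, and the array of oil dam 2 at GD20 is labelled as pooled. The RNA is that of whole testis without its capsule, so fewer cells of a type and less RNA per cell cannot be told apart.

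Cells make cholesterol from acetyl-CoA through mevalonate, isoprenoids and squalene. The genes of this chain are switched on together by SREBP2 (Srebf2), a membrane-bound transcription factor that SCAP escorts to the Golgi when sterols are scarce. Insig proteins hold SCAP back when sterols, and oxysterols such as 25-hydroxycholesterol, are plentiful. In the testis Leydig cells turn cholesterol into androgen, and the developing germ cells need it, with sterols on the way to it, for their membranes.

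Promoters of 5 of the 7 genes (Acat2, Mvd, Idi1, Dhcr7 and Insig1) are in RefSeq's GRCr8 table, which covers 250 bases before to 50 bases after each gene's start. Those of the 3 genes among them that passed the test after postnatal DBP are shown, read along the gene's strand, since these genes were lower together in that comparison. Capitals mark matches, on either strand, to 4 motifs: TCACNCCAC, a form of the sterol regulatory element that SREBP binds, CCAAT, the box of NF-Y, GGGCGG, the box of Sp1, and CACGTG, the E-box. NF-Y and Sp1 are the usual partners of SREBP.
Acat2 (chr1:50100590-50100889, + strand): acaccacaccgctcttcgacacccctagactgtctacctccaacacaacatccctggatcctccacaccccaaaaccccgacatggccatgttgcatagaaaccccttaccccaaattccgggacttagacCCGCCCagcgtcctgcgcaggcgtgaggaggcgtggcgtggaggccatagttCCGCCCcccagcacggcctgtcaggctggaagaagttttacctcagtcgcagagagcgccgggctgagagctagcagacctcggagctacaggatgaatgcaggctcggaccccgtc
Mvd (chr19:67414925-67415224, - strand): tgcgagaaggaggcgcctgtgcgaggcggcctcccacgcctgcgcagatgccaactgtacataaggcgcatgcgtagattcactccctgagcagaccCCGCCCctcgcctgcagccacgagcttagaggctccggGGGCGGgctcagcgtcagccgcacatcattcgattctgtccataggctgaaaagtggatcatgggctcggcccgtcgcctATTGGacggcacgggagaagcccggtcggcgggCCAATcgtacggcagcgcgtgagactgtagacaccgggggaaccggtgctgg
Dhcr7 (chr1:208444184-208444483, + strand): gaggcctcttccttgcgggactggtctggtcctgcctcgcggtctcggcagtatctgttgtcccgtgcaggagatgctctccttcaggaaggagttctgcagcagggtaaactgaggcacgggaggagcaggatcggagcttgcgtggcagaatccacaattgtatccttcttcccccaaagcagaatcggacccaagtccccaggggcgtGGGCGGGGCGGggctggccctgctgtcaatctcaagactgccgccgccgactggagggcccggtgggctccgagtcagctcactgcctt
The capitals in Acat2 are 2 Sp1 boxes, those in Mvd are 2 NF-Y and 2 Sp1 boxes, and the run in Dhcr7 is 2 Sp1 boxes that share a base. The Idi1 window held 2 NF-Y boxes, and that of Insig1 held 1 NF-Y box, 1 Sp1 box and 1 E-box. Of all 33469 promoters in the table, 37.5% hold an NF-Y box, 33.1% an Sp1 box, 6.42% an E-box and 1.12% the sterol element. The letters of the sterol element were not found in any of the 5 windows.

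The deposited values are intensities on a linear scale, and fold changes are differences of log2(intensity + 16). Arrays differed in ways that the treatment does not name. Median intensity was 101 to 114 at PND35 and 164 to 175 at GD20. The spike-in controls added to the RNA averaged 6.60 and 6.44 on the log2 scale in DBP dams 19 and 21, against 8.17 to 8.77 on the other GD20 arrays. At PND35 they were at 7.31 to 7.53 in DBP-DBP, against 5.90 to 6.14 in oil-DBP and oil-oil, and DBP-oil held 2 arrays of each kind. RNA of pups 115 (oil-DBP) and 104 (oil-oil) was extracted with Trizol and that of the other PND35 pups with a column kit. The labels do not say which pups share a litter.

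**Figure D1:**
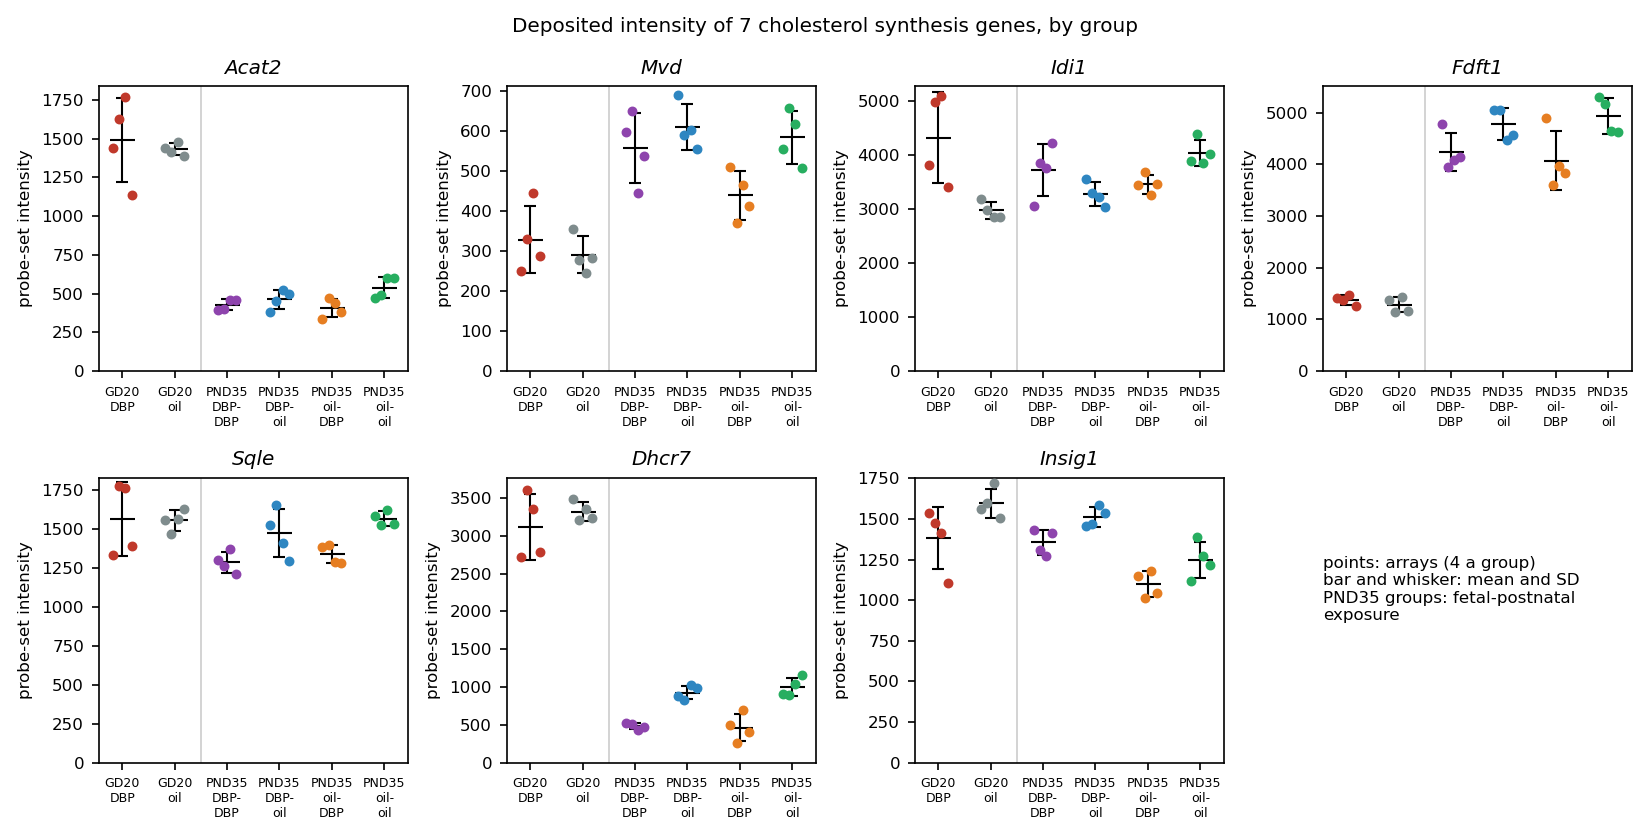
Deposited probe-set intensity (linear scale, from 0) of the 7 genes, each read by its brightest probe set at PND35, in 6 groups of 4 arrays, with points for arrays and bars for mean and SD. Dhcr7 lies at 259 to 697 in oil-DBP, against 896 to 1156 in oil-oil, and all PND35 arrays of Dhcr7 and Acat2 lie below all GD20 arrays.

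The comparison of oil-DBP with oil-oil pups asks what a single DBP dose did to the pubertal testis with no earlier exposure. Dhcr7, which makes cholesterol from 7-dehydrocholesterol in the last step of the main route, had intensities of 498, 259, 697 and 408 in oil-DBP pups 105, 111, 115 and 121. It had 915, 896, 1041 and 1156 in oil-oil pups 104, 110, 114 and 120. The groups did not overlap, and the log2 fold change was -1.22 ± 0.19 (SE, 95% interval -1.62 to -0.82, limma, adjusted p = 0.000206). Pup 115, the highest of the oil-DBP arrays, is one of the 2 Trizol arrays, and without both of them the value was -1.49 (adjusted p = 2.43e-05).

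The other enzymes that passed were lower by less. Acat2, the cytosolic thiolase that joins 2 acetyl-CoA at the start of the route (not the sterol acyltransferase once given the same symbol), had 336 to 471 in oil-DBP and 469 to 601 in oil-oil, with a log2 fold change of -0.46 ± 0.12 (adjusted p = 0.0169). Its groups overlapped by a single array. Mvd, the decarboxylase that makes isopentenyl diphosphate, had 510, 371, 464 and 412 in oil-DBP against 555, 657, 618 and 509 in oil-oil (-0.47 ± 0.14, adjusted p = 0.0366), again with an overlap of a single array. Fdft1, squalene synthase, had 3593 to 4889 in oil-DBP and 4622 to 5305 in oil-oil (-0.35 ± 0.10, adjusted p = 0.0349). Its other probe set had 837 to 988 in oil-DBP and 996 to 1295 in oil-oil, without overlap (-0.40 ± 0.10, adjusted p = 0.0169). Sqle, the squalene epoxidase, had 1382, 1395, 1288 and 1282 in oil-DBP against 1583, 1521, 1619 and 1527 in oil-oil (-0.29 ± 0.08, adjusted p = 0.0339). Its groups did not overlap.

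Idi1 and Insig1 did not pass. Idi1, which interconverts the 5-carbon isoprenoid units, had 3261 to 3686 in oil-DBP and 3857 to 4403 in oil-oil, without overlap, with a log2 fold change of -0.29 (95% interval -0.48 to -0.09, adjusted p = 0.0560). Its dimmer probe set gave 0.14 (-0.11 to 0.39, adjusted p = 0.533), so the 2 probe sets of Idi1 differ in sign. Insig1 had 1017 to 1182 in oil-DBP and 1119 to 1388 in oil-oil (-0.25, interval -0.43 to -0.06, adjusted p = 0.0837).

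In all, 5 of the 7 genes were lower and 0 higher, where 5.99% of the 14217 genes tested were lower and 6.14% higher. The median log2 fold change was -0.35 over the 7 genes and -0.11 over all genes. The unadjusted p was under 0.05 for all 7, and for 31.6% of all genes. Without overlap between groups were 3 of the 7 genes, and 13.7% of all genes. The count of 5 rests on the processing and on single arrays: it was 7 without oil-DBP pup 105, 1 without pup 121, 2 without pups 111, 110 or 114, and 3 without pups 104, 115 or 120. Without both Trizol arrays (pups 104 and 115) it was again 3, but of partly different genes: Dhcr7 and Acat2 passed with Insig1 (-0.35, adjusted p = 0.0273), and Mvd (adjusted p = 0.0560), Fdft1 (0.132) and Sqle (0.103) did not. Over all alternatives, Dhcr7 passed under all 20 alternatives tried for it, Acat2 under 14, Mvd under 10, Fdft1 under 8 and Sqle under 6, each with the same sign throughout.

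After fetal DBP, the same postnatal dose was followed by a lower level of Dhcr7 again. It had 527, 515, 438 and 472 in DBP-DBP pups 124, 128, 133 and 135, against 880, 827, 1022 and 983 in DBP-oil pups 123, 127, 132 and 134. The groups did not overlap (-0.92 ± 0.19, 95% interval -1.32 to -0.52, limma, adjusted p = 0.00420), and Dhcr7 passed under all 20 alternatives here too. These are other pups than those of the comparison after fetal oil. Neither DBP-DBP nor DBP-oil holds a Trizol array, so the extraction covariate left the value at -0.92. None of the 20 alternatives adjusted for spike-in class, in which DBP-DBP and DBP-oil differed in part.

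Dhcr7 was the only one of the 7 genes to pass after fetal DBP, where 2.14% of all genes were lower and 5.13% higher. Sqle had 1299, 1257, 1369 and 1210 in DBP-DBP and 1522, 1651, 1408 and 1293 in DBP-oil (-0.21, interval -0.38 to -0.03, adjusted p = 0.209). Insig1 had 1274 to 1431 in DBP-DBP and 1459 to 1589 in DBP-oil, without overlap, but did not pass (-0.18, interval -0.36 to 0.0047, adjusted p = 0.354). Fdft1 had -0.20 (interval -0.41 to 0.02), Mvd -0.15 (-0.44 to 0.14) and Acat2 -0.12 (-0.37 to 0.12). Idi1 had 3062, 3853, 3770 and 4223 in DBP-DBP against 3571, 3300, 3229 and 3046 in DBP-oil, a difference of 0.15 (-0.04 to 0.35, adjusted p = 0.481). No overlap between groups was seen for 2 of the 7 genes and for 15.2% of all genes. The median over the 7 genes was -0.18, against -0.07 over all genes.

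The interaction of the 2 exposures tests whether the postnatal difference depended on fetal treatment. It passed for 0 of the 7 genes and for 0% of all genes (limma, lowest adjusted p among the 7 of 0.954), and 1 of the 7 had an unadjusted p under 0.05, as did 4.61% of all genes. That gene was Idi1, at 0.44 ± 0.13 (interval 0.17 to 0.71, unadjusted p = 0.00289). The difference for Acat2 was 0.34 (-0.01 to 0.68) and for Dhcr7 0.30 (-0.27 to 0.86). It was 0.32 (-0.09 to 0.72) for Mvd and 0.15 (-0.15 to 0.45) for Fdft1. For Sqle it was 0.08 (-0.16 to 0.33) and for Insig1 0.07 (-0.19 to 0.33). An effect after fetal oil alone is therefore not shown for any of them.

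**Figure D2:**
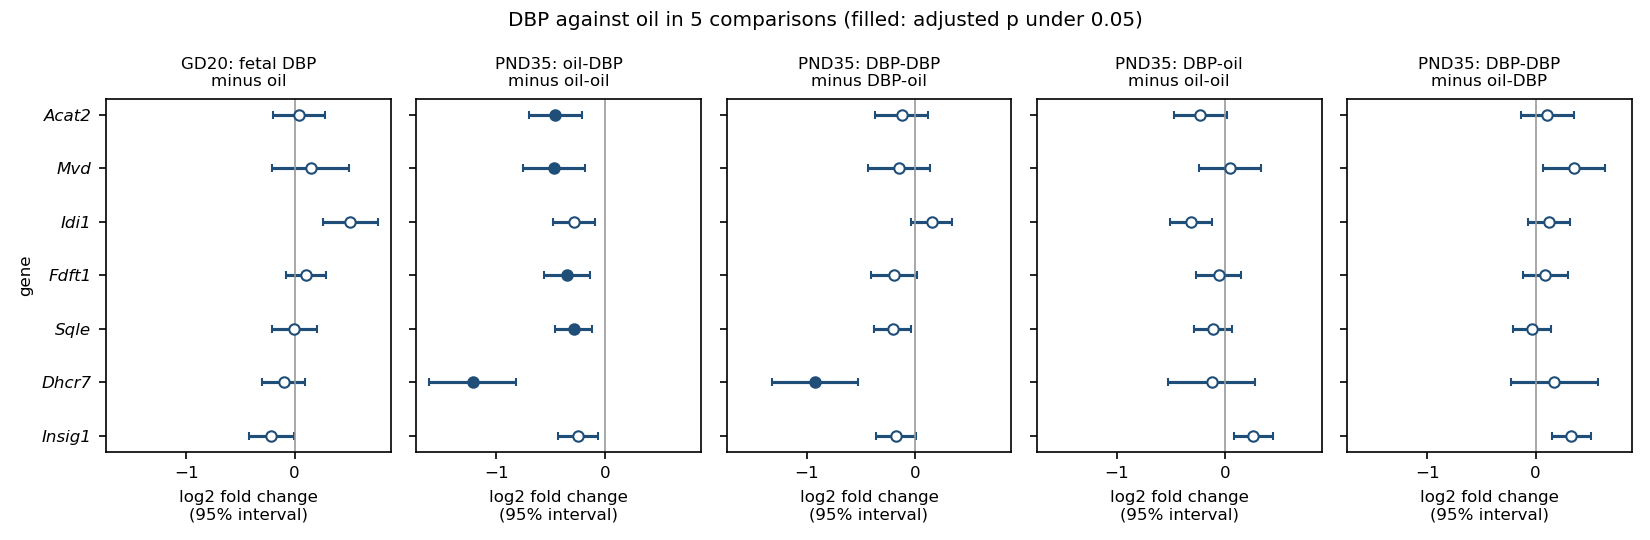
Log2 fold change with its 95% interval for the 7 genes in 5 comparisons of DBP with oil, filled where the adjusted p is under 0.05. Dhcr7 is filled in both comparisons of postnatal treatment (-1.22 and -0.92), and no gene is filled in the 3 comparisons of fetal treatment.

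The other genes of the route, taken from lists, give the setting of these values. Of 14 other enzymes of synthesis measured, 0 passed in either direction after fetal oil and 12 had a negative difference (median -0.21, against -0.11 over all genes). After fetal DBP again 0 passed (median -0.08, against -0.07 over all genes). Over the alternatives 0 to 2 were lower after fetal oil and 0 after fetal DBP. Of all genes, 5.99% were lower after fetal oil and 2.14% after fetal DBP. Fdps, which makes farnesyl diphosphate, came nearest to the threshold after fetal oil, with 6896 ± 676 in oil-DBP and 8014 ± 555 in oil-oil (SD, n = 4 each, log2 -0.28 ± 0.10, limma, adjusted p = 0.0911). These counts read each gene by its brightest probe set. Dimmer probe sets of Hsd17b7 (-0.69, adjusted p = 0.0368) and Sc5d (-0.64, adjusted p = 0.00580), enzymes that act on sterols after lanosterol, were past the threshold after fetal oil.

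Of 10 genes of sterol sensing and regulation, 1 rose and 1 fell after fetal oil, and 1 rose after fetal DBP. Over the alternatives 1 rose and 0 to 2 fell after fetal oil, and 0 to 1 rose after fetal DBP. For comparison, 6.14% of all genes were higher and 5.99% lower after fetal oil, and 5.13% higher and 2.14% lower after fetal DBP. Scap, the escort of SREBP, had 1252 to 1753 in oil-DBP and 791 to 1166 in oil-oil, without overlap (0.72 ± 0.12, adjusted p = 0.000289). After fetal DBP Scap had 1141 to 1436 in DBP-DBP and 866 to 1026 in DBP-oil, also without overlap (0.40 ± 0.12, adjusted p = 0.0483). The dimmer probe set of Scap did not pass in either comparison (0.28, adjusted p = 0.378, and -0.02, adjusted p = 0.978). Its brightest probe set passed under all 20 alternatives after fetal oil and under 10 after fetal DBP. Rnf139, a ubiquitin ligase of the endoplasmic reticulum, fell after fetal oil, to 3610 ± 280 in oil-DBP against 4304 ± 385 in oil-oil (-0.32 ± 0.09, adjusted p = 0.0310), and passed under 10 of 20 alternatives. Srebf2 itself had log2 differences of 0.12 ± 0.10 after fetal oil and -0.05 ± 0.10 after fetal DBP, and Srebf1, its relative in fatty acid synthesis, of 0.10 ± 0.13 and -0.10 ± 0.13. Insig2 had -0.26 ± 0.10 (adjusted p = 0.122) and -0.23 ± 0.10 (adjusted p = 0.259) in these comparisons. None of these passed, though the other probe set of Insig2 did after fetal oil (-0.38, adjusted p = 0.0297).

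Of 10 genes of uptake and trafficking, 3 fell and 1 rose after fetal oil, and 1 fell after fetal DBP, beside the shares of all genes given above. Over the alternatives 1 to 5 fell and 0 to 1 rose after fetal oil, and 0 to 2 fell after fetal DBP. Lrp8, a lipoprotein receptor that binds apolipoprotein E, had 123 to 351 in oil-DBP and 557 to 756 in oil-oil (-1.53 ± 0.29, adjusted p = 0.00123). After fetal DBP Lrp8 had 129 to 437 in DBP-DBP and 541 to 724 in DBP-oil (-1.18 ± 0.29, adjusted p = 0.0149). No array of Lrp8 overlapped in either comparison. Lrp8 passed under all 20 alternatives after fetal oil and under 16 after fetal DBP, where it did not pass without the intensity trend (adjusted p = 0.0636) or without pup 123 (0.0537), 133 (0.0658) or 134 (0.0512). Scarb1, the receptor through which Leydig cells take up cholesteryl esters from HDL, fell to 616 ± 198 in oil-DBP against 964 ± 159 in oil-oil (-0.74 ± 0.19, adjusted p = 0.02). It had 634 ± 115 in DBP-DBP and 999.6 ± 183 in DBP-oil (-0.66 ± 0.19, adjusted p = 0.0526), and its other probe set gave -0.69 (adjusted p = 0.0457) after fetal oil and -0.62 (adjusted p = 0.114) after fetal DBP. Stard3, a cholesterol-binding protein of late endosomes, fell after fetal oil (-0.53 ± 0.12, limma, adjusted p = 0.00750). Stard3 passed under 17 of 20 alternatives, against 14 for Scarb1 and 11 for Star. Star, which brings cholesterol into mitochondria for steroid synthesis, had 636 to 928 in oil-DBP and 212 to 486 in oil-oil and rose (1.11 ± 0.33, adjusted p = 0.0382), while after fetal DBP its difference was 0.22 ± 0.33 (adjusted p = 0.834). Its dimmer probe set had 0.46 (adjusted p = 0.263) after fetal oil.

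Among genes of storage, efflux and oxysterols, those that passed were higher. Of 11 measured, 4 rose and 0 fell after fetal oil, and 5 rose and 0 fell after fetal DBP. Over the alternatives 4 rose after fetal oil and 4 to 5 after fetal DBP, and 0 fell in either comparison. Of all genes, 6.14% were higher and 5.99% lower after fetal oil, and 5.13% higher and 2.14% lower after fetal DBP. Ch25h makes 25-hydroxycholesterol. It had 120 to 370 in oil-DBP and 2.98 to 16 in oil-oil (3.35 ± 0.34, adjusted p = 7.95e-07), and 128 to 350 in DBP-DBP and 5.47 to 35.7 in DBP-oil (3.04 ± 0.34, adjusted p = 3.40e-06). The oil values of Ch25h are close to 0 on this scale, so its log2 fold change depends on the added 16, and it ranged from 1.99 to 4.96 over the alternatives after fetal oil. Plin2, a coat protein of lipid droplets, had 1466 to 2003 in oil-DBP and 823 to 1094 in oil-oil (0.84 ± 0.13). Soat1, which esterifies cholesterol for storage, had 735 to 1072 in oil-DBP and 441 to 604 in oil-oil (0.70 ± 0.12). Abcg1, an exporter of cholesterol, had 453 to 643 in oil-DBP and 298 to 398 in oil-oil (0.62 ± 0.12).

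After fetal DBP the same 4 genes rose, by 0.69 ± 0.13 for Plin2, 0.54 ± 0.12 for Soat1 and 0.72 ± 0.12 for Abcg1 on the log2 scale, and these 3 passed under all 20 alternatives in both comparisons, as did Ch25h. The dimmer probe set of Plin2 had the opposite sign and did not pass (-0.16, adjusted p = 0.388, after fetal oil and -0.17, adjusted p = 0.5, after fetal DBP), and that of Soat1 gave 0.74 (adjusted p = 0.0141) and 0.63 (adjusted p = 0.0517). The 2 dimmer probe sets of Abcg1 were positive in both comparisons without passing. Abca1, the exporter that loads apolipoprotein A-I, had 616 to 737 in DBP-DBP and 389 to 524 in DBP-oil (0.59 ± 0.15, adjusted p = 0.0186) and passed under 15 of 20 alternatives. After fetal oil its difference was 0.25 ± 0.15 (adjusted p = 0.320), though another of its probe sets passed (0.71, adjusted p = 0.0231), and the difference between the values of the brightest probe set was 0.34 ± 0.21 (interaction, adjusted p = 0.954).

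**Figure D3:**
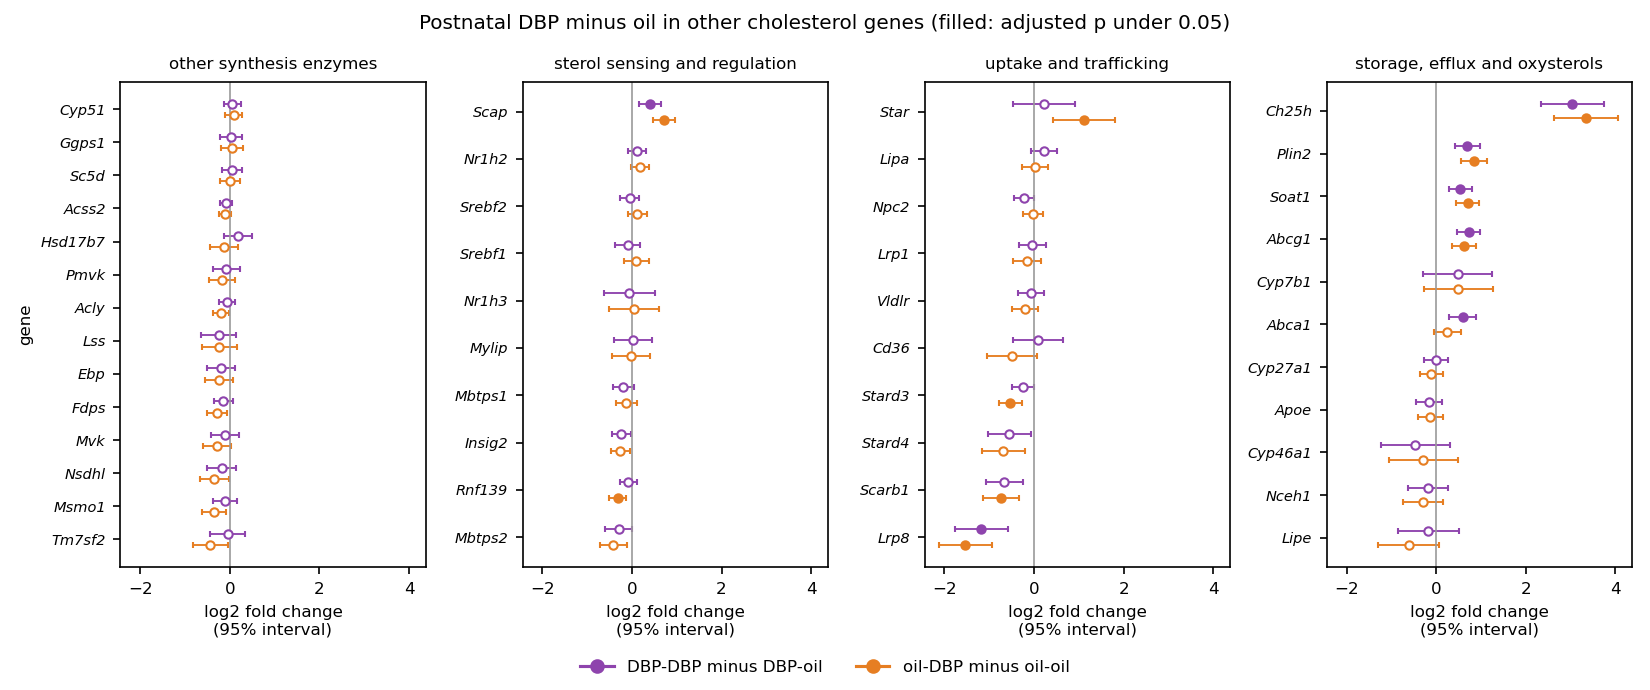
Log2 fold change with 95% interval of postnatal DBP minus oil in DBP-DBP against DBP-oil pups (purple) and oil-DBP against oil-oil pups (orange), for 45 genes in 4 lists, filled where the adjusted p is under 0.05. Ch25h, Plin2, Soat1, Abcg1 and Scap are filled to the right and Lrp8 to the left in both comparisons, and none of the other synthesis enzymes is filled.

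Cell type markers moved in the same comparisons. Of 8 spermatid markers, 5 were lower after fetal oil (0 to 6 over the alternatives, with 0 after quantile normalization and 0 without pups 104 and 115) and 0 after fetal DBP, where 5.99% and 2.14% of all genes were lower. Their summed intensity was 87153 to 124883 in oil-DBP and 106505 to 137993 in oil-oil, and 93830 to 102485 in DBP-DBP and 94945 to 122413 in DBP-oil. Of 7 Leydig cell markers, 1 was higher and 3 lower after fetal oil, and 1 higher and 2 lower after fetal DBP. Their sum was 11529 to 17106 in oil-DBP and 15602 to 22100 in oil-oil, and 13192 to 15019 in DBP-DBP and 14114 to 19057 in DBP-oil. The higher marker in both was Fdx1 (log2 0.36 and 0.37). Fdx1 had 5587 to 8016 in oil-DBP and 4376 to 5394 in oil-oil, and 4967 to 6756 in DBP-DBP and 3921 to 5005 in DBP-oil. Cyp17a1, an enzyme of androgen synthesis in Leydig cells, fell in both (-1.50 ± 0.24, adjusted p = 0.000207, and -0.99 ± 0.24, adjusted p = 0.0135), and Cyp11a1, which cleaves the cholesterol side chain, fell after fetal oil (-1.05 ± 0.32, adjusted p = 0.0418) and had -0.26 ± 0.32 (adjusted p = 0.781) after fetal DBP. Of 4 markers of peritubular myoid cells 3 were higher in each comparison. Acta2 had 1582 ± 141 in oil-DBP and 959 ± 65.1 in oil-oil, Cnn1 342 ± 64.3 and 171 ± 8.99. Tagln had 1237 ± 162 in oil-DBP and 622 ± 53.9 in oil-oil, Myh11 1154 ± 148 and 1100 ± 74.7. Of 9 markers of macrophages and leukocytes 2 were higher and 1 lower after fetal oil and 3 higher after fetal DBP. For all these lists, the share of all genes that were higher was 6.14% after fetal oil and 5.13% after fetal DBP. Of 10 Sertoli cell markers, 2 were higher and 1 lower after fetal oil and 1 lower after fetal DBP. The lower one in both was Inhbb, an inhibin subunit, at 825 ± 156 in oil-DBP and 1434 ± 196 in oil-oil (-0.86 ± 0.15, adjusted p = 0.000730), and 797 ± 181 in DBP-DBP and 1534 ± 144 in DBP-oil (-0.98 ± 0.15, adjusted p = 0.000211). Over the 10 Sertoli markers the median log2 difference was 0.09 after fetal oil, with 6 positive and 4 negative. After fetal DBP it was -0.09, with 4 positive and 6 negative. Gata4 had 1491 ± 124 in oil-DBP and 1043 ± 140 in oil-oil, and Rhox5 had 69.0 ± 17.8 and 23.9 ± 17.8. The Sertoli sum was 38289 to 50704 in oil-DBP and 38460 to 46619 in oil-oil, and 38509 to 42518 in DBP-DBP and 40854 to 44038 in DBP-oil. Of 2 blood markers, 1 was lower after fetal oil, Alas2, and 0 after fetal DBP. The macrophage sum was 4741 to 6296 in oil-DBP and 4504 to 5601 in oil-oil, and 4997 to 7172 in DBP-DBP and 3600 to 4830 in DBP-oil. In oil-oil this sum had a mean of 5030, of which Aif1 was 2653 ± 486. Aif1 was 1896 ± 277 in oil-DBP and 205 ± 25.5 in oil at GD20. Lyz2, Cd14 and Mrc1 had means of 1866, 203 and 1316 in oil-DBP against 939, 93.1 and 977 in oil-oil. After fetal oil 6 of the 9 differences were positive and 3 negative, so the sum mixes markers that moved apart. The part of these markers in the values of the cholesterol genes was not tested. The 5 markers of adipose tissue summed to at most 285 on a PND35 array and the 2 of adrenal cortex to at most 97.8. A sum above 0 does not by itself show that cells of a type are present.

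The comparison of DBP with oil at GD20 asks what the fetal doses did while they were being given. None of the 7 genes passed (limma, 0 of 7, where 0.563% of all genes did), and 2 had an unadjusted p under 0.05, as did 13.1% of all genes. The groups did not overlap for 1 of the 7 and for 8.45% of all genes. The median was 0.04, against 0.02 over all genes. Idi1 had 3824, 4988, 5094 and 3407 in DBP dams 16, 18, 19 and 21, against 3200, 2983, 2867 and 2868 in oil dams 2, 3, 4 and 5. The groups did not overlap, and the difference was 0.52 ± 0.12 (interval 0.26 to 0.77, adjusted p = 0.0972). It passed without DBP dam 21 (0.62, adjusted p = 0.0294) and without dams 19 and 21 (0.55, adjusted p = 0.0473). It passed under 3 of 17 alternatives in all, and with spike-in class as a covariate the value was 0.55 with an adjusted p of 0.155. Dams 19 and 21 make up the low spike-in class, so the covariate and leaving them out give the same estimate. The dimmer probe set of Idi1 had 525 to 964 in DBP and 612 to 782 in oil (0.12, interval -0.22 to 0.46, adjusted p = 0.819). Insig1 had 1540, 1475, 1416 and 1106 in DBP against 1562, 1600, 1721 and 1509 in oil (-0.21, interval -0.42 to -0.01, adjusted p = 0.414).

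Dhcr7 had 2721 to 3604 in DBP and 3203 to 3481 in oil at GD20 (-0.10, interval -0.30 to 0.10). The intervals reached 0.51 for Mvd, 0.28 for Acat2, 0.29 for Fdft1 and 0.21 for Sqle. The SD between arrays was larger in DBP than in oil litters for these genes except Fdft1, which had an SD of 89.3 in DBP and 147 in oil. The dimmer probe set of Fdft1 went the other way, with an SD of 55.4 in DBP and 19.9 in oil. Acat2 had 1137 to 1767 in DBP and 1387 to 1477 in oil, and Sqle 1327 to 1770 in DBP and 1463 to 1626 in oil. Among the list genes, Lrp8 fell to 1030 ± 139 in DBP against 1435 ± 86.6 in oil (-0.48 ± 0.09, adjusted p = 0.0450). Nceh1, a hydrolase of cholesteryl esters, had 235 to 317 in DBP and 399 to 439 in oil and fell (-0.61 ± 0.11, adjusted p = 0.0382). Each of these 2 genes passed under 5 of 17 alternatives, and neither passed without dams 19 and 21 (adjusted p = 0.117 for Lrp8 and 0.0869 for Nceh1). Ch25h, chosen after its values were seen, had 115 to 198 in DBP and 56.6 to 78.3 in oil, without overlap (1.03 ± 0.20, adjusted p = 0.0510). Spermatid markers summed to 839 to 4986 in DBP (mean 1985) and 818 to 937 in oil (mean 869) at GD20. The mean in DBP lies far below the highest array, so the high sum is not a trait of the whole group. The part of these markers in the values of the cholesterol genes was not tested.

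At PND35 fetal treatment left no gene of the 7 past the threshold, either before postnatal oil (DBP-oil minus oil-oil) or before postnatal DBP (DBP-DBP minus oil-DBP). All the comparisons at PND35 draw on the same 4 groups, so each group enters more than one of them. In either comparison 0 of 7 passed and 0% of all genes did (limma), while 2 of 7 had an unadjusted p under 0.05 in each, as did 6.49% of all genes before postnatal oil and 9.77% before postnatal DBP. The groups did not overlap for 2 of the 7 genes before postnatal oil (3.66% of all genes) and for 1 before postnatal DBP (5.61%). Before postnatal oil, Idi1 had 3046 to 3571 in DBP-oil and 3857 to 4403 in oil-oil, without overlap (-0.32, interval -0.51 to -0.12, adjusted p = 0.342). Its dimmer probe set had 529 to 633 in DBP-oil and 369 to 582 in oil-oil (0.34, interval 0.08 to 0.59, adjusted p = 0.501), which is the opposite sign.

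Insig1 had 1459 to 1589 in DBP-oil and 1119 to 1388 in oil-oil, without overlap (0.26, interval 0.08 to 0.44, adjusted p = 0.428). Before postnatal DBP it had 1274 to 1431 in DBP-DBP and 1017 to 1182 in oil-DBP, again without overlap (0.33, interval 0.15 to 0.51, adjusted p = 0.246). Mvd had 446 to 651 in DBP-DBP and 371 to 510 in oil-DBP (0.36, interval 0.07 to 0.64, adjusted p = 0.425). Dhcr7 had 438 to 527 in DBP-DBP and 259 to 697 in oil-DBP (0.17, interval -0.23 to 0.57), and 827 to 1022 in DBP-oil and 896 to 1156 in oil-oil (-0.12, interval -0.52 to 0.28). Before postnatal oil the other differences were -0.23 (-0.47 to 0.02) for Acat2, -0.11 for Sqle, -0.06 for Fdft1 and 0.04 for Mvd. Before postnatal DBP they were 0.11 for Acat2, 0.09 for Fdft1, -0.03 for Sqle and 0.12 for Idi1. In the comparison before postnatal DBP, spike-in class and fetal treatment cannot be told apart. Srebf2 had 525 to 558 in DBP-DBP and 698 to 787 in oil-DBP (-0.40 ± 0.10, adjusted p = 0.241), and Star 345 to 1300 in DBP-oil and 212 to 486 in oil-oil (1.14 ± 0.33, adjusted p = 0.334).

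The controls also allow the pubertal testis to be set against the fetal testis (oil-oil minus GD20 oil). As deposited, Fdft1 had 4936 ± 351 at PND35 and 1284 ± 147 at GD20 (SD, n = 4 each), Mvd 585 ± 66.0 and 291 ± 46.4, and Idi1 4045 ± 250 and 2980 ± 157. Dhcr7 had 1002 ± 122 at PND35 and 3320 ± 127 at GD20, and Acat2 539 ± 69.8 and 1430 ± 38.4. Sqle had 1562 ± 47.1 at PND35 and 1552 ± 67.3 at GD20, and Insig1 1249 ± 112 and 1598 ± 89.7. The 2 ages did not overlap for 6 of the 7, all except Sqle, and likewise for 70.9% of all genes.

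The median probe set was lower by 0.65 on the log2 scale at PND35, so arrays were centred on their medians for the test and changes are relative to that shift. So centred, 5 of the 7 genes were higher and 2 lower at PND35, where 49.0% of all genes were higher and 26.9% lower, and the median of the 7 was 0.66 against 0.41 for all genes. The values were 2.59 ± 0.08 for Fdft1 (limma, adjusted p = 3.09e-12), 1.63 ± 0.13 for Mvd, 1.09 ± 0.07 for Idi1 and 0.66 ± 0.06 for Sqle. They were 0.30 ± 0.08 for Insig1, -1.06 ± 0.08 for Dhcr7 and -0.73 ± 0.09 for Acat2.

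With the arrays as deposited, Fdft1 (1.93), Mvd (0.98), Idi1 (0.44), Dhcr7 (-1.72) and Acat2 (-1.39) kept their direction and passed. Insig1 turned to -0.35 and passed as lower (limma, adjusted p = 0.000993), and Sqle was at 0.0100 (adjusted p = 0.901). Quantile normalization left Idi1 at 0.09 (adjusted p = 0.209) and also made Insig1 lower (-0.39, adjusted p = 0.000307). The dimmer probe set of Idi1 had 449 ± 92.6 at PND35 and 715 ± 77.7 at GD20 (-0.01 centred, adjusted p = 0.935), whereas that of Fdft1 gave 1.42 ± 0.09.

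Both directions within the route were also seen in the lists. Of the 14 other enzymes of synthesis, 3 were higher and 7 lower on centred arrays, and 2 and 11 as deposited. Acss2, which makes acetyl-CoA from acetate, and Fdps were higher (2.04 ± 0.07 and 1.65 ± 0.07), and Hsd17b7 and Msmo1, enzymes that act on sterols after lanosterol, were lower (-1.03 ± 0.17 and -0.92 ± 0.11). The dimmer probe set of Hsd17b7 was at 0.35 and did not pass (adjusted p = 0.0739). Scarb1 and Star were lower at PND35 (-1.92 ± 0.10 and -3.14 ± 0.19), Rnf139 and Insig2 higher (2.86 ± 0.08 and 1.89 ± 0.09). All 8 spermatid markers were higher at PND35, with a sum of 106505 to 137993 against 818 to 937 at GD20, and 5 of the 7 Leydig cell markers were lower, with a sum of 15602 to 22100 against 47690 to 50352. Their part in the values of the cholesterol genes was not tested. All GD20 RNA was extracted with Trizol, and of the oil-oil arrays only that of pup 104 was, so age and extraction can hardly be told apart.

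**Figure D4:**
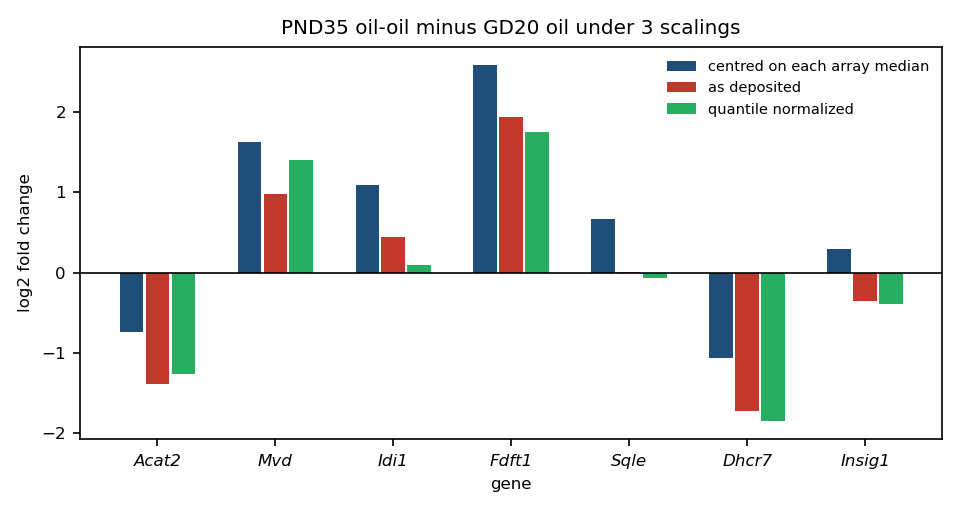
Log2 fold change of PND35 oil-oil minus GD20 oil for the 7 genes with arrays centred on their medians, as deposited and quantile normalized (bars from 0). Fdft1 and Mvd are above 0 and Dhcr7 and Acat2 below 0 under all 3 scalings, and Insig1 changes side (0.30, -0.35 and -0.39).

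Within groups the 7 genes varied together only in part. Across the 24 arrays, after each group's mean was taken out, the Pearson correlation between pairs of them was -0.27 (Fdft1 and Acat2) to 0.59 (Idi1 and Sqle). Of 10630 genes with a mean intensity of at least 100, the 10 whose deviations were most like the mean deviation of the 7 were Dimt1 (r = 0.85), Cct7 (0.83), Atg4b (0.80), Mfap5, Mzt1, Zscan21, Arfgap3, Sumf2, Hes6 and Cenpw (0.77). The nearest gene of the lists was Tm7sf2, a sterol reductase of the same route, at rank 55 (r = 0.70), and Mvk, the mevalonate kinase, came at rank 242. These are descriptions of 24 arrays that share their scaling, and no test was made of them.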

How the data were processed

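Total RNA of 24 testis samples was biotin-labelled and hybridised to Rat230_2 arrays, per the labels' protocols, with GCOS 1.0 named in the submitters' processing notes. The authors deposited linear probe-set intensity without detection calls. The values show a common 2% trimmed mean per array (500.14 to 500.19). No source used here names the summarization algorithm. Groups were taken from the labels. The number of arrays limits the precision.

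From the deposited intensity, log2(intensity + 16) was computed here. GD20 arrays were kept as scaled, and PND35 arrays and those of the age comparison were centred on their medians, because medians spanned over 0.1. After 57 control probe sets were left out, 31042 were tested with limma 3.58.1 in R 4.3.3 (lmFit, eBayes with trend), two-sided, with Benjamini-Hochberg adjustment and a threshold of 0.05. The 16 PND35 arrays shared a fit. The highest mean probe set stands for a gene. The fit was tested on simulated data. The members and lists were chosen with earlier results of these data known. All 7 members are named in all 7 comparisons, as are Srebf1, Srebf2, Insig2, Scarb1, Star, Cyp11a1, Cyp17a1 and Abca1 where values bear on the text, and from each list at most 4 genes that passed. Gonocyte and spermatocyte markers were also measured. Nothing says which pups share a litter, so p-values cover the spread between these animals.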

Additional observations from a re-analysis of the deposited data

Results flagged for a closer look

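Among the 9 probe sets of the 7 genes in 6 groups, 54 sets of 4 arrays were searched for an array that stands apart (gap to its nearest neighbour over 0.829 of the range), and 0 were found, where chance gives about 5%. No interaction of fetal and postnatal DBP passed for any of the 7 genes (limma, lowest adjusted p = 0.954; 1 of 7 at an unadjusted p under 0.05).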

How the results depend on the processing

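Alternatives were other scalings, quantile normalization, a filter on dim probe sets, no intensity trend and array weights. Others were pseudocounts of 1 and 64, any probe set of a gene, fits of only the 8 arrays compared, and leaving out arrays. Covariates were also tried, for extraction (at PND35 only), RNA integrity and spike-in class (at GD20 only). The count of genes lower in oil-DBP than in oil-oil was the one most open to these alternatives. Against 5 as reported, it was 3 after quantile normalization and without pups 104 and 115, where Insig1 was 1 of the 3. It was 2 on arrays as deposited, without the trend and with RNA integrity as a covariate, and 1 in a fit of only the 8 arrays. Leaving out an array gave 1 to 7. The labels give the groups no shared replicate numbers and state no pairing. Adjacent pup numbers as a block, a pairing assumed here, gave 1. Dhcr7 was among the genes that passed in each of these, and in DBP-DBP against DBP-oil the count was 1 throughout. At GD20, 1 gene (Idi1) was higher with array weights and without dams 19 and 21, and 0 to 1 when an array was left out. At PND35 against GD20, 3 were higher as deposited and 2 after quantile normalization, against 5 as reported. The count lower was 2 to 3 over the alternatives, against 2 as reported, and Insig1 passed as lower under both of these scalings.

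Among the named genes, changes of sign in which the value passed as reported or under the alternative were found only in the comparison of ages; Srebf1 passed only as deposited. As deposited, the log2 fold change was -0.35 for Insig1, -0.48 for Srebf1, -0.31 for Srebf2, -0.35 for Abca1, -0.33 for Scap and -0.097 for Stard3. After quantile normalization it was -0.062 for Sqle, -0.39 for Insig1, -0.087 for Srebf2, -0.0079 for Abca1 and -0.21 for Scap. By construction the values as deposited keep the shift of the median, -0.65 on the log2 scale. The cause of the changes after quantile normalization was not tested.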
